A study of Arabidopsis thaliana with 9 samples.

Results

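In red-light-grown seedlings of Arabidopsis thaliana, 61 of the 24640 genes listed in the files had low transcript levels in hy5 while their mean in the bbx202122 triple mutant stayed near that of the wild type. They include genes of iron and metal homeostasis (IRT1, NAS1, FRO4, FRO5, BHLH101), the thylakoid gene CURT1A and the mannan synthase gene CSLA03. The rule that chose them used counts per 1e6 expected counts of a library (CPM), with a gene missing from a file set to 0. It took nuclear genes (AT1G to AT5G) with a WT mean of at least 2 CPM, a hy5 mean of at most 40% of WT, a bbx202122 mean of 80 to 125% of WT, and every hy5 library below every WT and bbx202122 library. Since the rule used the levels of all 3 genotypes, the members' values are given here as a description, with no test, and tests are given for genes that are no members.

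Transcripts were measured by poly(A) RNA sequencing of whole seedlings in 9 libraries, 3 per genotype: WT (ecotype Col-0), bbx202122 (bbx20 bbx21 bbx22) and hy5. All seedlings had the same growth: sterile seeds on MS medium lacking sucrose, 2 days of cold at 4 °C, a white light pulse of 2 h, 22 h of darkness and then 3 days of red light at 80 µmol per square metre and second and 22 °C, to an age of 4 days. The labels give an ecotype for WT alone, and they name no allele of hy5 or of the B-box genes. No source used here says that replicates came from separate cultures, so p-values speak of the spread between these libraries, which may be technical.

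HY5 is a bZIP protein that drives the switch to growth in light and binds DNA motifs with an ACGT core. BBX20, BBX21 and BBX22 are B-box proteins that act with it as co-factors at many of its targets, and the series compares the mutants to ask how far the transcriptome depends on each. Iron uptake from soil in Arabidopsis runs through the root epidermis: a ferric-chelate reductase (FRO2) and a ferrous iron transporter (IRT1) sit at the surface, FIT and the subgroup Ib bHLH factors switch their genes on, and nicotianamine made by NAS enzymes carries iron within the plant. HY5 itself was at 15.8, 16.6 and 18.3 CPM in WT, at 6.06, 6.85 and 6.45 CPM in bbx202122 and at 8.77, 8.85 and 6.35 CPM in hy5, so its transcript was low in both mutants and lowest on average in bbx202122. BBX21 was at 105, 91.7 and 107 CPM in WT and 27.6, 25 and 25.9 CPM in bbx202122, and BBX22 at 29.6, 29.6 and 28.4 CPM and 3.03, 2.70 and 2.50 CPM. BBX20 was at 5.09, 4.36 and 4.38 CPM in WT, 4.16, 4.41 and 3.95 CPM in bbx202122 and 1.85, 2.37 and 2.03 CPM in hy5. The bbx202122 libraries were thus far below WT in BBX21 and BBX22 and overlapped WT in BBX20 (-0.16 ± 0.13 on the log2 scale, edgeR adjusted p = 0.48), whose transcript level does not set the libraries labelled as its mutant apart. With no allele named, a level says nothing of the protein made.

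Library totals were 21.6 to 22.8 in units of 1e6 expected counts, so that 3 counts in a library correspond to 0.132 to 0.139 CPM. Of 18149 nuclear genes with a WT mean of at least 2 CPM, 428 had a hy5 mean of at most 40% of WT. In 363 of those the bbx202122 mean was below 80% of WT, in 4 it was above 125%, and the remaining 61 are the members. All 61 met the clause on separate libraries, which 20.0% of all tested genes also met. In the fit across all genes, 39.5% of tested genes were called in hy5 against WT, 16.9% in bbx202122 against WT and 23.0% in hy5 against bbx202122, in either direction; the members were chosen on these differences, so no count of them is read against these shares. The members' median hy5 level was 33.1% of WT (range 0 to 39.7%), and their median bbx202122 level was 93.8% (80.1 to 123%). Over all 18149 genes these medians were 96.9% and 101%. The bbx202122 libraries overlapped the WT libraries in 50 members, and their mean was below that of WT in 41 members and above it in 20. Of the 15748 genes with a WT mean of at least 2 CPM and a bbx202122 mean within the same limits, 75.3% overlapped and 43.6% had the lower mean in bbx202122, against 82.0% and 67.2% of members. Nearest inside the upper limit on hy5 were RL4 (39.1% of WT), IRT1 (39.3%), DR4 (39.3%) and HXK3 (39.7%). Nearest outside it were AT2G35585 (40% after rounding), the ferric-chelate reductase gene FRO2 (40.7%), the receptor-like kinase gene CRK30 (40.7%) and AT2G19650 (40.9%), so the limit runs through a continuous range of values.

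**Figure D1:**
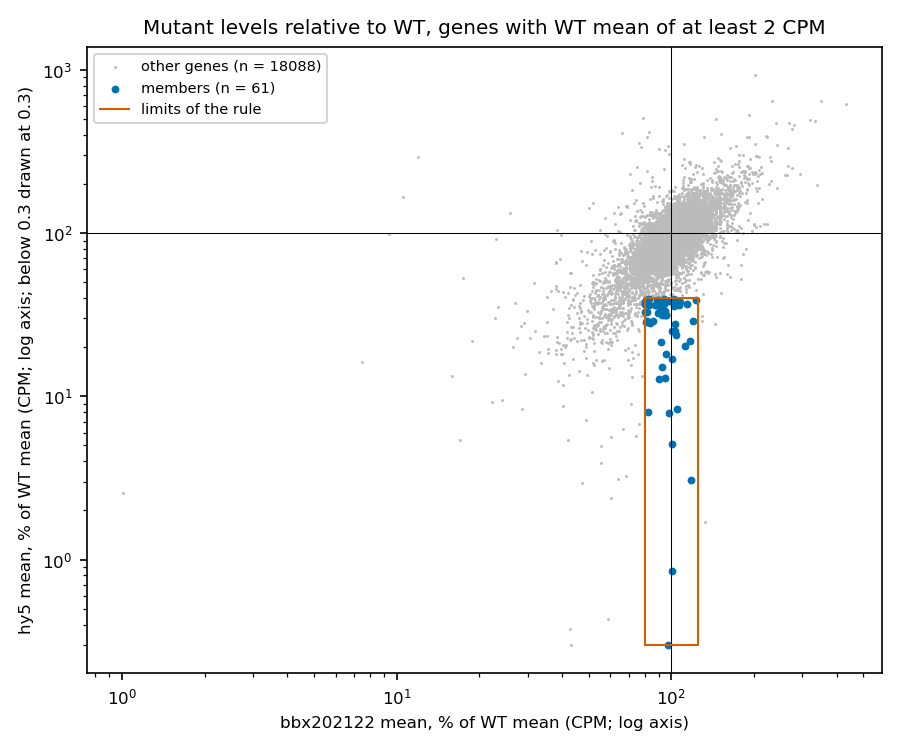
Mean level in hy5 (vertical log axis) against mean level in bbx202122 (horizontal log axis), both in % of the WT mean in CPM, for nuclear genes with a WT mean of at least 2 CPM; blue points are the 61 members, grey points the other genes, and the box marks the limits of the rule (values under 0.3% are drawn at 0.3). Members fill the box densely at 30 to 40% of WT, where 37 of them lie, and thin out towards 0.

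The members' summed level was 1910, 2040 and 1980 CPM in the WT libraries, 1770, 1920 and 2020 CPM in bbx202122, and 612, 645 and 618 CPM in hy5. In whole seedlings, fewer cells of a type and less RNA per cell cannot be told apart. Of the 61, 7 were under 10% of WT in hy5, 5 at 10 to 20%, 12 at 20 to 30% and 37 at 30 to 40%. Levels were mostly low: 20 members had a WT mean of 2 to 5 CPM, 15 of 5 to 10 CPM, 21 of 10 to 50 CPM, 1 of 50 to 100 CPM and 4 over 100 CPM. On the deposited FPKM scale, which corrects for transcript length, the highest WT means were those of CURT1A (800 FPKM), DR4 (292), MLP328 (139) and LTPG2 (138). By annotated function they fall into 10 genes of iron and metal homeostasis, 4 of other membrane transport, 9 regulators and signalling genes, 11 of defence, lectins and stress, 13 enzymes, 4 of cell wall, cell surface and thylakoid, and 10 others. These groups were formed by hand from the annotation after the members were known.

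Since HY5 binds ACGT cores, the promoters of the iron and metal members were read for them. Within the 250 bases before the annotated start, 5 of these 10 genes hold ACGT, against 41.0% of all members and 44.4% of 18147 genes with a WT mean of at least 2 CPM and a promoter in the genome. Those 5 stretches are printed here, to show where the core lies, and the other 5 are not. They were read from the RefSeq TAIR10.1 genome on the strand of the gene, 5′ to 3′, with each ACGT in capitals and, in FRO5, the hybrid motif CACGTC as well. AT1G47395 lies at chr1:17382748-17382997 (plus strand), AT1G47400 at chr1:17385457-17385706 (plus), NAS1 at chr5:1459040-1459289 (minus), FRO5 at chr5:8108643-8108892 (minus) and ZIP2 at chr5:23992909-23993158 (minus).
AT1G47395: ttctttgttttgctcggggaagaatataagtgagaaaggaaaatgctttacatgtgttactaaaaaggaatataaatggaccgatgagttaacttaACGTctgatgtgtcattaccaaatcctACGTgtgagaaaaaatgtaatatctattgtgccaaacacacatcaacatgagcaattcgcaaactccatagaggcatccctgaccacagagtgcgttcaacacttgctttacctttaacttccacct
AT1G47400: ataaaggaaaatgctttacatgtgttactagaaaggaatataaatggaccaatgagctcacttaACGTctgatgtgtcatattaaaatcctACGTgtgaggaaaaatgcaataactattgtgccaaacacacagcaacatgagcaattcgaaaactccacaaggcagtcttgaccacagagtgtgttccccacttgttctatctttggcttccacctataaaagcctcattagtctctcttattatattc
NAS1: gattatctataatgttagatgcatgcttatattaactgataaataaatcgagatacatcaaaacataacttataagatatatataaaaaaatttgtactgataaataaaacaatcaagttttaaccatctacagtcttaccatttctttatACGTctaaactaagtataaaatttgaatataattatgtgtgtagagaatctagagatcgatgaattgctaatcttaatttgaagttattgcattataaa
FRO5: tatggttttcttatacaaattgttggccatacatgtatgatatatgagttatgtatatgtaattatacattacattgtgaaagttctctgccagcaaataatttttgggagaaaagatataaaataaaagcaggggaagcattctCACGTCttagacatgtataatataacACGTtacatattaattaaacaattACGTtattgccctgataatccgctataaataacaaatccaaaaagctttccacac
ZIP2: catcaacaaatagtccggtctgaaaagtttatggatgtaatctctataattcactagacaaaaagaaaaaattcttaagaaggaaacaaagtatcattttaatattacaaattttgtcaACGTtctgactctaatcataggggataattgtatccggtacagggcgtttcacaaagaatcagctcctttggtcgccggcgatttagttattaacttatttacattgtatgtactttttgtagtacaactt

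The promoters of AT1G47395 and AT1G47400, neighbouring genes on chromosome 1, share 160 of 218 bases (73.4%) without gaps, with the first shifted by 32 bases. Both ACGT cores lie in the shared stretch, at -154 and -127 in AT1G47395 and at -186 and -159 in AT1G47400, counted back from the start. FRO5 holds 3 cores, the farthest within CACGTC. Across the whole set and a window from 250 bases before to 50 after the start, searched on both strands, ACGT was in 32 of 61 members (52.5%), against 50.6% of the same 18147 genes. The G-box CACGTG, which contains that core, was in 4 members (6.56% against 9.09%), the C-box GACGTC in 0 (against 3.09%) and the hybrid GACGTG or CACGTC in 4 (6.56% against 7.6%). The members' windows had a GC content of 31.2%, against 32.0%. The shares of members with these motifs are thus near or below those of all such genes, and a match says nothing of binding.

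Among the iron and metal members NAS1, ZIP2 and IRT1 were highest. NAS1 (AT5G04950, nicotianamine synthase; TAIR10.1 chromosome 5, 1457641 to 1459039) was at 40.4, 43.8 and 43.6 CPM in WT, 34.6, 39.8 and 30.2 CPM in bbx202122 and 12.4, 13.6 and 11.0 CPM in hy5. ZIP2 (AT5G59520; chromosome 5, 23991213 to 23992908), of the ZIP family of metal transporters, was at 32.6, 32.9 and 35.6 CPM in WT, 34.1, 36.8 and 34.2 CPM in bbx202122 and 12.1, 13.3 and 13.3 CPM in hy5. IRT1 (AT4G19690; chromosome 4, 10707344 to 10709015), the main root transporter for ferrous iron, was at 30.6, 32.7 and 36.7 CPM in WT, 36.3, 31.5 and 25.9 CPM in bbx202122 and 14.4, 14.9 and 9.99 CPM in hy5. In each of these genes the hy5 libraries formed a low group of their own. The bbx202122 libraries overlapped those of WT in ZIP2 and IRT1, and in NAS1 they all lay below WT. The hy5 means were 28.9%, 38.2% and 39.3% of WT.

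The reductase genes FRO4 and FRO5, neighbours on chromosome 5 that are known for copper reduction at the root surface, were lower in level. FRO4 (AT5G23980; 8097978 to 8101330) was at 6.67, 7.79 and 8.53 CPM in WT, 7.72, 9.0 and 6.55 CPM in bbx202122 and 0.462, 1.14 and 2.31 CPM in hy5, the lowest share of WT in the group (17.0%) and, relative to the mean, the widest scatter among hy5 libraries (SD 71.6% of the mean, against 5.37 to 31.1% in the other 9 genes). FRO5 (AT5G23990; 8105461 to 8108642) was at 2.15, 2.41 and 2.24 CPM in WT, 2.55, 2.40 and 3.20 CPM in bbx202122 and 0.508, 0.639 and 0.824 CPM in hy5. Of the 50-base words in their transcripts, 5.6% and 5.48% occur in the other gene, so a small part of their reads cannot be assigned to either on sequence alone. The hy5 libraries were below all others in both genes.

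CYP82C4 (AT4G31940), a cytochrome P450 of coumarin synthesis for iron mobilisation, was at 6.32, 5.14 and 4.96 CPM in WT, 5.83, 5.0 and 4.25 CPM in bbx202122 and 1.52, 1.14 and 0.87 CPM in hy5. BHLH101 (AT5G04150), of subgroup Ib, was at 5.10, 5.95 and 4.78 CPM in WT, 4.30, 4.42 and 3.99 CPM in bbx202122 and 2.12, 1.32 and 1.80 CPM in hy5. VTL1 (AT1G21140), a vacuolar iron transporter-like gene, was at 2.46, 2.50 and 2.86 CPM in WT, 2.22, 2.61 and 2.15 CPM in bbx202122 and 1.15, 1.14 and 0.737 CPM in hy5. BHLH101 is the gene of this trio whose bbx202122 libraries were all below WT (mean 80.4%), close to the lower limit of the rule. Its 3′ end overlaps GLU1 (AT5G04140), a glutamate synthase gene at 1210 to 1250 CPM in WT and 1270 to 1450 CPM in hy5, and the strand of counting is not stated in the sources used here.

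AT1G47395 and AT1G47400, annotated as uncharacterized proteins and held in the iron deficiency list, varied alike across libraries. AT1G47395 was at 10.4, 13.1 and 8.64 CPM in WT, 10.6, 6.79 and 9.31 CPM in bbx202122 and 4.59, 3.15 and 3.83 CPM in hy5. AT1G47400 was at 5.74, 6.78 and 5.21 CPM in WT, 5.42, 3.98 and 6.09 CPM in bbx202122 and 2.84, 1.51 and 2.11 CPM in hy5. Both were highest in WT replicate 2 and hy5 replicate 1 and lowest of the bbx202122 libraries in replicate 2. Among all members 12 were highest in WT replicate 2 and hy5 replicate 1, BHLH101 and RL4 among them, and 6 of these were also lowest in bbx202122 replicate 2. Taken singly, 33 of the 61 members were highest in WT replicate 2 and 20 in hy5 replicate 1. The joint count is therefore not read as a shared pattern. The part of those libraries in the results was not tested beyond leaving each out.

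**Figure D2:**
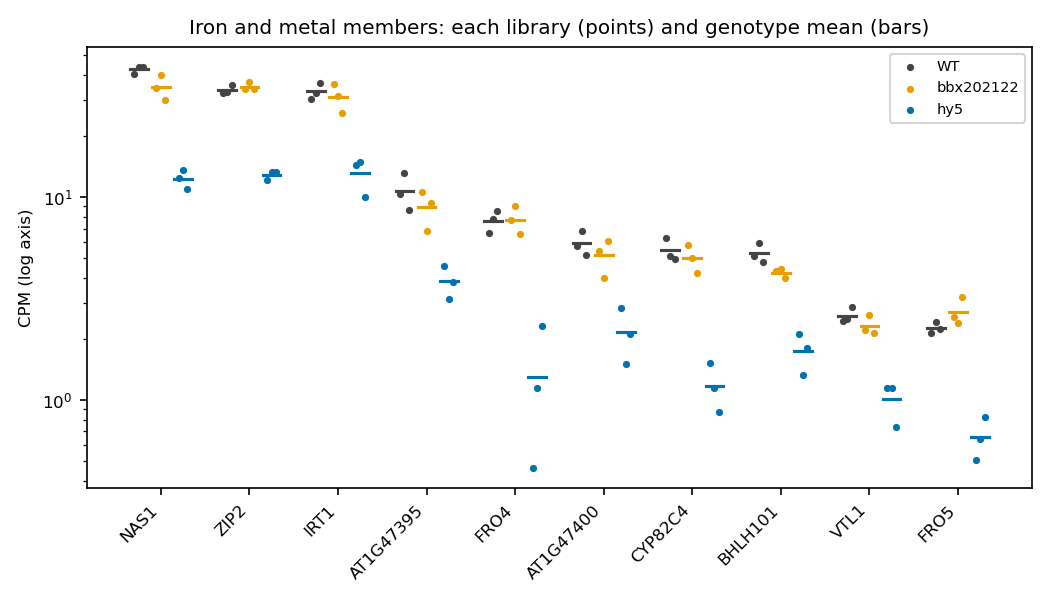
CPM of the 10 iron and metal members (log axis) in each library, with points for single libraries coloured by genotype and bars for genotype means. Every hy5 point lies below every WT and bbx202122 point of its gene, as the rule requires, and on this log axis FRO4 has the widest hy5 scatter (0.462 to 2.31 CPM).

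Genes of the iron deficiency response that the rule did not take can be tested. Their list was chosen with earlier results of these data known, so its counts are no independent support. The iron deficiency list holds 19 genes, 5 of them members, and 13 of the other 14 were tested. Of these 13, 10 fell in hy5 against WT and 0 rose (edgeR's quasi-likelihood test, Benjamini-Hochberg adjusted p under 0.05), where 19.8% of all 20751 tested genes fell. Their median log2 fold change was -1.0, against 0.003 over all tested genes. In bbx202122 against WT 5 of the 13 fell and 2 rose (8.27% of all genes fell and 8.62% rose), with a median of -0.18 against 0.007. Tested directly, 11 of the 13 were lower in hy5 than in bbx202122 and 0 higher, where 12.1% of all genes were lower and 10.9% higher. The comparisons with WT share the WT libraries.

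BHLH38, of subgroup Ib, was at 13.7, 16.1 and 11.6 CPM in WT, 8.77, 8.29 and 11.6 CPM in bbx202122 and 3.11, 2.08 and 3.00 CPM in hy5. It fell by 2.28 ± 0.17 on the log2 scale in hy5 (SE; edgeR adjusted p = 7.4e-08), by 0.54 ± 0.14 in bbx202122 (adjusted p = 0.015), and was lower in hy5 than in bbx202122 by -1.74 ± 0.17 (adjusted p = 5.6e-06). BHLH100, of the same subgroup, fell by 2.12 ± 0.17 in hy5 (adjusted p = 1.7e-07) and by 0.67 ± 0.15 in bbx202122 (adjusted p = 0.0054), and BHLH39 by 1.2 ± 0.16 in hy5 (adjusted p = 3.4e-05), with -0.35 ± 0.15 in bbx202122 (adjusted p = 0.12). All 3 relatives of BHLH101 thus passed the test in hy5, and their hy5 libraries were below those of both other genotypes.

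F6'H1, which makes the coumarin precursor upstream of CYP82C4, was at 28.2, 28.5 and 26.7 CPM in WT, 21.4, 27.7 and 29.1 CPM in bbx202122 and 11.5, 12 and 10.8 CPM in hy5. Its change in hy5 was -1.23 ± 0.10 (edgeR adjusted p = 2.6e-07), against -0.10 ± 0.09 in bbx202122 (adjusted p = 0.5), and hy5 was below bbx202122 by -1.12 ± 0.10 (adjusted p = 2e-06). FRO2, just outside the rule, was at 9.32, 11.5 and 11.0 CPM in WT, 11.9, 8.47 and 8.30 CPM in bbx202122 and 4.71, 5.29 and 2.95 CPM in hy5, with hy5 below bbx202122 by -1.08 ± 0.19 (adjusted p = 0.00075). FIT, the bHLH factor that activates IRT1 and FRO2, was at 9.69, 9.41 and 9.91 CPM in WT and 7.85, 7.67 and 8.61 CPM in hy5. The hy5 libraries of FIT were all below WT, but the difference of -0.21 ± 0.09 missed the threshold (adjusted p = 0.082), and passed it with library size as the only scaling (-0.27, adjusted p = 0.035). OPT3, a phloem iron transporter gene, was at -0.10 ± 0.06 in hy5 (adjusted p = 0.23). Smaller falls in hy5 passed for BTS (-0.36 ± 0.05, adjusted p = 9.5e-05) and PYE (-0.36 ± 0.09, adjusted p = 0.0052), which encode an iron-regulated E3 ligase and bHLH factor.

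The families of the iron and metal members were split. Of 3 other nicotianamine synthase genes, NAS2 fell by 2.15 ± 0.18 (edgeR adjusted p = 2.2e-07) and NAS4 by 1.06 ± 0.08 (adjusted p = 1.6e-07) in hy5, while NAS3 was at 0.33 ± 0.19 (adjusted p = 0.2). NAS2 and NAS4 also fell in bbx202122, by 0.73 (adjusted p = 0.0039) and 0.65 (adjusted p = 6.8e-05). Of 12 other IRT and ZIP genes 9 were tested and 2 fell in hy5, a share near the 19.8% of all tested genes that fell. They were IRT2, by 1.48 ± 0.18 (adjusted p = 1.4e-05), and ZIP3, by 1.1 ± 0.12 (adjusted p = 3.9e-06). IRT2 is the neighbour of IRT1, and both it and ZIP3 fell in bbx202122 as well, by 0.95 and 0.92. Of 6 other FRO genes 5 were tested: FRO2, FRO3 and FRO6 fell in hy5 and FRO8 rose, where 19.8% of all tested genes fell and 19.6% rose. In bbx202122 FRO6 fell by 0.78 (adjusted p = 0.00031), FRO7 by 0.28 (adjusted p = 0.046) and FRO3 by 0.19 (adjusted p = 0.025). Between the mutants FRO6 did not differ (-0.01 ± 0.13 in hy5 against bbx202122, adjusted p = 0.97). VTL5 fell by 0.86 ± 0.10 (adjusted p = 1.2e-05) in hy5 and was at 0.13 in bbx202122 (adjusted p = 0.4).

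Markers of root cells were read beside these genes. Of 17 root hair genes 15 fell in hy5 and 1 rose (LRX2), and 14 fell in bbx202122. Their summed level was 510 to 538 CPM in WT, 284 to 325 CPM in bbx202122 and 238 to 295 CPM in hy5, so it was low in both mutants. The 9 root cell type markers summed to 159 to 167 CPM in WT, 155 to 173 CPM in bbx202122 and 167 to 183 CPM in hy5. Of these markers 5 fell and 2 rose in hy5, where 19.8% of all tested genes fell and 19.6% rose. Their median log2 fold change was -0.69 in hy5 and -0.36 in bbx202122, so the sum does not speak for each marker. Endodermal SCR and CASP1 rose in hy5 by 0.20 ± 0.06 (edgeR adjusted p = 0.02, and 0.055 to 0.096 without WT replicate 1, WT replicate 2 or hy5 replicate 1) and 0.34 ± 0.07 (adjusted p = 0.0016). The epidermal regulator WER fell by 0.92 ± 0.19 (adjusted p = 0.0011), CPC by 0.9 ± 0.19 (adjusted p = 0.0015) and PLT2 by 1.31 ± 0.34 (adjusted p = 0.0067). No marker had a mean of 0, and the lowest, WOX5 of the root stem cell niche, was at 0.759, 0.480 and 0.383 CPM in WT, bbx202122 and hy5. The part of root cell numbers in the iron genes' levels was not tested. The labelled whole seedling held both organs, with the 8 shoot and stomatal markers summing to 26600 to 31500 CPM over the 9 libraries.

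The other transport members were ALMT1, CHX16, UMAMIT35 and AT5G18840, with a median hy5 level of 36.8% of WT. ALMT1 (AT1G08430), a root malate efflux channel known from aluminium tolerance, was at 15, 13.2 and 14.7 CPM in WT, 14.4, 14.7 and 16.8 CPM in bbx202122 and 5.86, 4.61 and 5.20 CPM in hy5. UMAMIT35 (AT1G60050), of a family that exports amino acids, was at 7.05, 7.51 and 6.25 CPM in WT, 4.89, 5.95 and 6.59 CPM in bbx202122 and 1.43, 1.92 and 2.49 CPM in hy5. ALMT1 was the steadier of the pair, with bbx202122 at the WT level, while the bbx202122 values of UMAMIT35 straddled the lower edge of WT. CHX16, a cation/H+ exchanger gene, was at 38% of WT in hy5 and 108% in bbx202122, and AT5G18840, of the major facilitator superfamily, at 37.0% and 114%. ALMT6, ALMT9 and ALMT12, the other ALMT genes tested, were at -0.46 ± 0.34, -0.02 ± 0.07 and -0.08 ± 0.08 on the log2 scale in hy5 against WT. Of these 3 genes 0 passed the threshold in either direction, where 39.5% of all tested genes did.

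The regulators and signalling members had a narrow range in hy5, 29.0 to 39.1% of WT, and none had a bbx202122 mean above WT (80.9 to 94.2%). AT1G51830 (chromosome 1, 19242654 to 19246154), a leucine-rich repeat protein kinase gene, was the highest of them, at 46.9, 54.1 and 45.6 CPM in WT, 41.7, 49.6 and 46.7 CPM in bbx202122 and 15, 19.6 and 19.7 CPM in hy5. RL4 (AT2G18328), of the small RADIALIS-like MYB proteins, was at 17.3, 19.9 and 14.2 CPM in WT, 15.1, 13.7 and 13.0 CPM in bbx202122 and 7.57, 5.79 and 6.77 CPM in hy5. AT3G25790, a myb-like factor, was at 9.83, 11.0 and 10.4 CPM in WT, 8.37, 8.96 and 8.21 CPM in bbx202122 and 2.54, 4.65 and 4.60 CPM in hy5. For the last of these every bbx202122 library was also below every WT library, with a mean of 81.8% of WT. The bHLH gene AT2G43140 was at 31.3% of WT in hy5, the remorin gene AT3G48940 at 29.0%, the type-A response regulator gene RR16 at 36.3%, and MYB54, a factor of secondary wall formation, at 37.5%. bZIP8 was at 38.5% and the calcium sensor gene CBL6 at 38.7%. AT2G43140 was the member whose promoter window held 2 G-boxes.

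Among the defence, lectin and stress members, DR4 and MLP328 were by far the most abundant. DR4 (AT1G73330, drought-repressed 4; chromosome 1, 27568714 to 27569823) was at 321, 315 and 329 CPM in WT, 253, 338 and 395 CPM in bbx202122 and 114, 133 and 133 CPM in hy5. MLP328 (AT2G01520), an MLP-like protein gene, was at 128, 112 and 127 CPM in WT, 84.6, 109 and 154 CPM in bbx202122 and 36.9, 43.1 and 42.1 CPM in hy5. VSP1 (AT5G24780), a jasmonate-induced vegetative storage protein gene, was at 18.9, 20.6 and 17.7 CPM in WT, 12, 15.8 and 23.5 CPM in bbx202122 and 5.87, 6.65 and 5.98 CPM in hy5. In all of these genes bbx202122 replicate 1 was lowest and replicate 3 highest of its genotype, and the WT-like mean averages libraries on both sides of WT. VSP2, the paralogue next to VSP1, was at 23.9, 30.2 and 22.1 CPM in WT and 19.0, 19.2 and 18.6 CPM in hy5, a difference of -0.37 ± 0.15 that missed the threshold (edgeR adjusted p = 0.064) and passed it with library size as the only scaling (adjusted p = 0.033), no filter (0.049), WT and hy5 alone in the fit (0.0053) or without WT replicate 3 (0.042). LOX2, a jasmonate synthesis gene, rose by 0.83 ± 0.08 in hy5 (adjusted p = 1.4e-06), and of 4 tested jasmonate and wounding genes other than VSP1 3 rose and 0 fell, where 19.6% of all genes rose.

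AT3G22240, a PCC1-like cysteine-rich protein gene, was at 41.4, 47.8 and 48.2 CPM in WT, 35.9, 43.3 and 44.4 CPM in bbx202122 and 6.27, 5.42 and 5.75 CPM in hy5. Of the 50-base words of its transcript, 37.8% also occur in its neighbour AT3G22235, which fell by 4.70 ± 0.53 on the log2 scale in hy5 (edgeR adjusted p = 5.8e-06), from a mean of 1.81 to 0.0668 CPM. Reads of the pair could be shared, so each one's level is uncertain. AT1G13609, a defensin-like gene, was at 21.0, 24.7 and 17.0 CPM in WT, 18.6, 14.9 and 17.4 CPM in bbx202122 and 7.34, 4.02 and 6.63 CPM in hy5. AT4G16857, annotated in the TIR-NBS-LRR class of disease resistance proteins, was at 2.65, 3.86 and 2.40 CPM in WT, 4.46, 2.95 and 3.09 CPM in bbx202122 and 0.072, 0.0675 and 0.134 CPM in hy5. Each hy5 library was under the level of 3 counts, with 5.95 expected counts over all of them. Its share of repeated 50-base words was 20%, of which AT4G16950 held most (14.6% of its words), and the adjoining RPP4 rose by 0.85 ± 0.09 in hy5 (adjusted p = 1.8e-06). The lectin genes AT1G57570, AT1G60095 and AT3G16530 were at 31.6%, 38.5% and 38.7% of WT in hy5, the TIR-NBS gene AT3G04210 at 32.9% and the dirigent-like gene AT4G11210 at 35.5%.

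The enzymes were led by scpl31 (AT1G11080), a serine carboxypeptidase-like gene, at 8.37, 10.7 and 10.4 CPM in WT, 9.41, 8.87 and 9.88 CPM in bbx202122 and 1.94, 1.83 and 1.61 CPM in hy5. UGT71D1 (AT2G29730), a UDP-glucosyl transferase gene, was at 16.9, 16.2 and 16 CPM in WT, 16.6, 17.1 and 16.9 CPM in bbx202122 and 3.06, 4.51 and 4.68 CPM in hy5. PAP7 (AT2G01880), a purple acid phosphatase gene, was at 9.14, 8.25 and 8.08 CPM in WT, 8.28, 7.75 and 10.3 CPM in bbx202122 and 1.57, 2.78 and 2.72 CPM in hy5. WT and bbx202122 lay together in all of these, and hy5 apart. The terpenoid synthase gene TPS12 was at 20.3% of WT in hy5, at a WT mean of 2.22 CPM, and NAMT1, of the methyltransferase superfamily, at 31.4%. The subtilase gene AT5G45650, the most abundant enzyme gene of the set, was at 37.7% with 28.3 ± 3.25 CPM in WT (SD, n = 3), and SCPL12 at 38.4% with 26.1 ± 0.741 CPM. AT4G19975 (36.0%), the methyltransferase gene CCoAOMT7 (37.0%), the mutarotase-like gene AT3G01260 (38.2%), the cytochrome P450 gene CYP716A1 (38.7%), the oxidoreductase gene AT5G62420 (39%) and HXK3 (39.7%) complete the group. CCoAOMT7 and AT5G45650 were at 80.1% of WT in bbx202122, at the edge of the rule. HXK3 is a hexokinase gene, and its relatives were at -0.10 ± 0.07 (HXK1, edgeR adjusted p = 0.27) and 0.25 ± 0.08 (HXK2, adjusted p = 0.021, and 0.055 to 0.078 without WT replicate 1, WT replicate 3, hy5 replicate 1 or hy5 replicate 2) in hy5 against WT.

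CURT1A (AT4G01150; chromosome 4, 493546 to 494885), which bends thylakoid membranes at the margins of grana, was the most abundant member, at 622, 720 and 679 CPM in WT, 609, 645 and 681 CPM in bbx202122 and 219, 220 and 198 CPM in hy5. The hy5 mean was 31.4% of WT, or 3.18-fold lower, while bbx202122 libraries lay within or just under the WT range. Among the other CURT1 genes, CURT1B was at -0.05 ± 0.08 (edgeR adjusted p = 0.62) and CURT1C at 0.00 ± 0.05 (adjusted p = 1) on the log2 scale in hy5, and CURT1D fell by 0.40 ± 0.09 (adjusted p = 0.002). The light-harvesting gene CAB1, read as a shoot marker, rose by 0.34 ± 0.07 (adjusted p = 0.00085) in hy5. Of the 8 shoot and stomatal markers 5 fell and 2 rose in hy5, where 19.8% of all tested genes fell and 19.6% rose, and their median log2 fold change was -0.35. Those that fell include TMM (-0.58 ± 0.09, adjusted p = 7.3e-05), GL1 (-2.41 ± 0.40, adjusted p = 0.00023) and SPCH (-0.47 ± 0.12, adjusted p = 0.0066). The part of these markers in the level of CURT1A was not tested.

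LTPG2 (AT3G43720; chromosome 3, 15615386 to 15617309), a GPI-anchored lipid transfer protein gene that acts in wax export to the cuticle, was at 121, 111 and 109 CPM in WT, 115, 116 and 112 CPM in bbx202122 and 30.3, 29.6 and 25.6 CPM in hy5. AT3G16670, of the Ole e 1 and extensin family, was at 45.3, 60.5 and 62.4 CPM in WT, 71.3, 62.2 and 41.4 CPM in bbx202122 and 12.8, 13.8 and 13.3 CPM in hy5. LTPG2 was tight in every genotype, whereas AT3G16670 scattered in WT and bbx202122 but not in hy5. Among other LTPG genes, LTPG1 was at 0.16 ± 0.06 (edgeR adjusted p = 0.063, and 0.047 without WT replicate 3) in hy5 against WT, LTPG6 rose by 0.56 ± 0.05 (adjusted p = 1.3e-06), LTPG3 rose by 1.89 ± 0.35 (adjusted p = 0.00054) from a WT mean of 0.227 CPM, and LTPG5 fell by 0.53 ± 0.07 (adjusted p = 2.9e-05).

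CSLA03 (AT1G23480; chromosome 1, 8332862 to 8336414), of the cellulose synthase-like A family that makes mannan chains, was at 40.6, 36.6 and 38 CPM in WT, 41.8, 40.8 and 38.3 CPM in bbx202122 and 3.00, 3.70 and 2.99 CPM in hy5. The hy5 mean was 8.41% of WT, or 11.9-fold lower, and the other genotypes lay together. None of its 50-base words occurs elsewhere in the genome. Of 7 other CSLA genes tested, 3 fell in hy5 and 2 rose, where 19.8% of all tested genes fell and 19.6% rose. CSLA02 fell by 0.29 ± 0.07 (edgeR adjusted p = 0.0029) and CSLA15 by 0.58 ± 0.12 (adjusted p = 0.0012). CSLA09, the most abundant, rose by 0.33 ± 0.06 (adjusted p = 0.00066) and CSLA10 by 0.96 ± 0.16 (adjusted p = 0.00022). CSLA10 starts 183 kb from the start of CSLA03, on the same chromosome, in RefSeq's TAIR10.1.

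**Figure D3:**
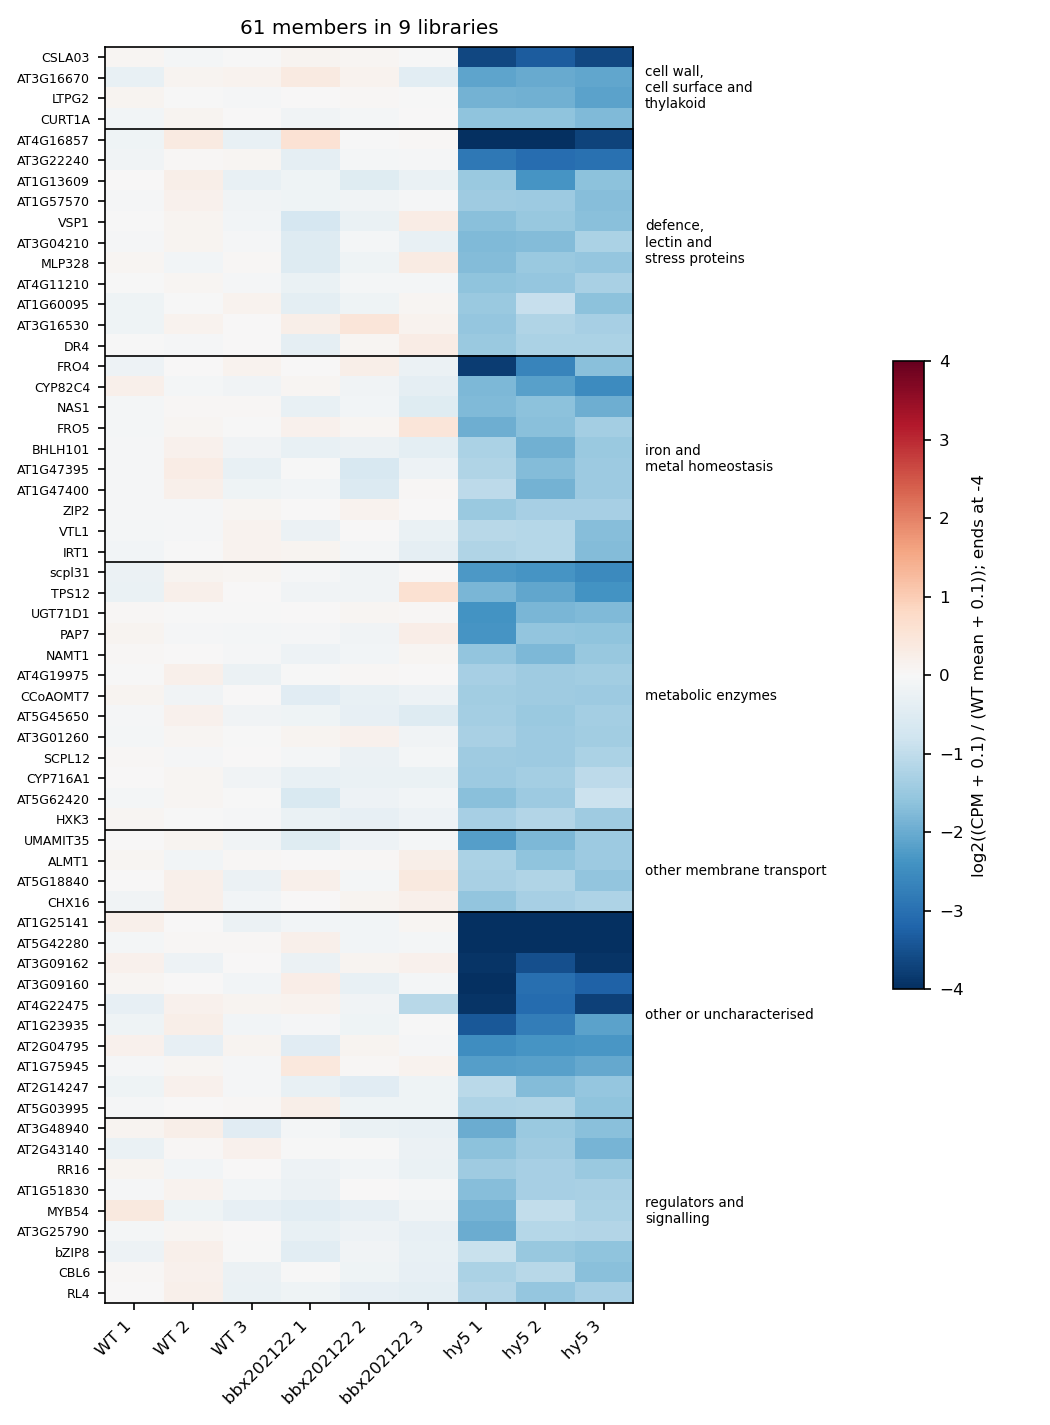
Levels of all 61 members (rows, grouped by annotated function) in the 9 libraries (columns), as log2 of (CPM + 0.1) over (WT mean + 0.1); the colour scale ends at -4. WT and bbx202122 columns are near 0, the hy5 columns are blue in every row, and the darkest rows include AT1G25141, AT5G42280, AT4G16857 and AT3G09162.

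The 10 other members had the lowest group median in hy5, 10.5% of WT against 33.1% over all members, with a range of 0 to 38.3%. AT1G25141 (chromosome 1, 8817678 to 8818395), annotated as an F-box associated ubiquitination effector, was at 4.46, 3.94 and 3.26 CPM in WT, 3.62, 3.6 and 4.08 CPM in bbx202122 and had 0 counts in every hy5 library. Against a floor of 3 counts over the 3 hy5 libraries it was at least 84.5-fold lower. All of its 50-base words (100%) also occur in AT1G24792, which is 1 of 3 genes that hold every one of them, so its reads could be placed on any of these. AT5G42280 (chromosome 5, 16905202 to 16908059), of the cysteine/histidine-rich C1 domain family, was at 6.84, 7.40 and 7.42 CPM in WT, 8.25, 6.74 and 6.77 CPM in bbx202122 and 0.138, 0.0456 and 0 CPM in hy5, with 4 counts over the hy5 libraries. Its share of repeated words was 0.605%. Its neighbour VAR1, a chloroplast protease gene that overlaps it, was at 383, 388 and 419 CPM in WT and 381, 397 and 384 CPM in hy5.

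AT3G09160 (chromosome 3, 2805779 to 2807055), of the RNA-binding RRM family, was at 6.22, 6.05 and 5.54 CPM in WT, 7.11, 4.78 and 5.58 CPM in bbx202122 and 0.231, 0.639 and 0.535 CPM in hy5. The adjacent AT3G09162 was at 4.78, 3.61 and 4.24 CPM in WT, 3.57, 4.50 and 4.74 CPM in bbx202122 and 0.185, 0.274 and 0.184 CPM in hy5. Both are members, so the rule fixed their low hy5 levels and their likeness is not read as a result. On the other side AT3G09160 overlaps HY2, a phytochromobilin synthase gene, at 12.7, 13.4 and 13.4 CPM in WT and 10.8, 10.1 and 10.8 CPM in hy5. AT4G22475 was at 11.1, 16 and 15.3 CPM in WT, 15.6, 12.8 and 6.44 CPM in bbx202122 and 0.839, 1.59 and 0.962 CPM in hy5. Replicate 3 of bbx202122 was low in that gene but above all hy5 libraries. AT1G23935 was at 13.0% of WT in hy5, AT2G04795 at 15.1%, AT1G75945 at 21.8%, AT2G14247 at 36.8% and AT5G03995 at 38.3%.

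The members CSLA03, AT1G23935 and AT1G25141 lie in 1 stretch of chromosome 1, taken here from 8282862 to 8868395 (586 kb), which was looked at after their values were seen. Of 111 tested genes there that are no members, 25 were called lower (22.5%) and 24 higher (21.6%) in hy5 against WT, near the 19.7% lower and 19.7% higher among 20561 such genes of the nuclear genome. Among the 111, 4 were called with a fitted fold of at least 8: AT1G24851, AT1G23915, AT1G25112 and AT1G25025. Among the 20561 such genes of the nuclear genome 134 were. The share was larger in the stretch, but it rests on these 4 genes and on limits drawn around members. AT1G23915, AT1G25025 and AT1G25112 had 0 counts in WT, so their fitted folds are no measure of size. No excess is therefore read from the share. AT1G24851 was at 2.08, 1.60 and 1.01 CPM in WT, 3.77, 1.67 and 4.38 CPM in bbx202122 and had 0 counts in every hy5 library. AT1G23915, which starts 4.1 kb from AT1G23935, had 0 counts in all 6 WT and bbx202122 libraries and was at 40.2, 41.4 and 40.2 CPM in hy5. AT1G25112, which starts 2.49 kb from AT1G25141, likewise had 0 counts in those 6 libraries and was at 17.3, 16.3 and 16.2 CPM in hy5. AT1G25025 has the same values as AT1G25112 in every library, so the estimates of that pair are not separate. Genes with 0 counts in WT and bbx202122 thus adjoin both of these members. Over the nuclear genome 24 genes had 0 counts in those 6 libraries and a hy5 mean of at least 2 CPM, and 2 of them started within 10 kb of a member. No ecotype is labelled for hy5, so a differing sequence background and the loss of HY5 cannot be told apart for these members.

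**Figure D4:**
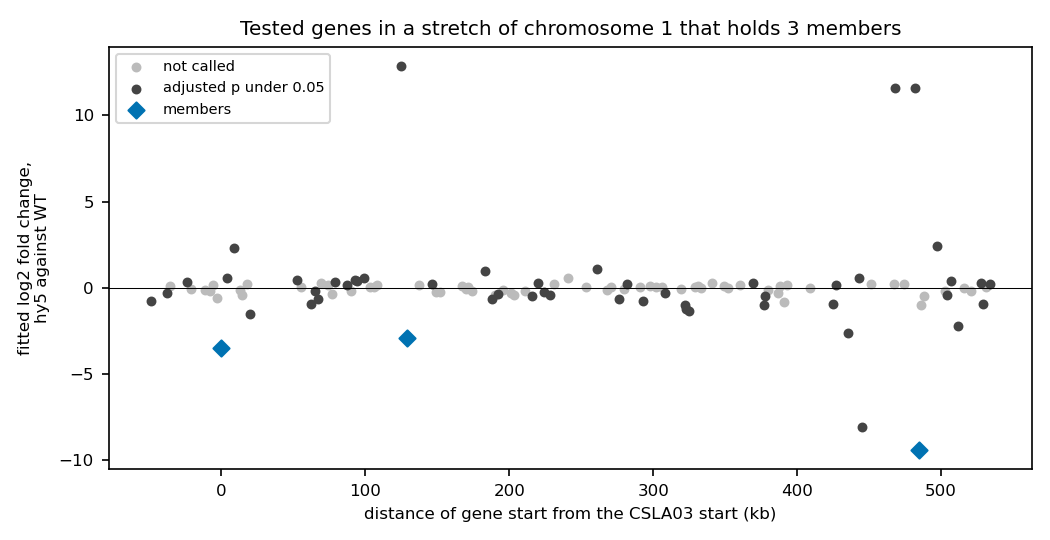
Fitted log2 fold change in hy5 against WT (vertical axis) of the 114 tested genes in the chromosome 1 stretch by distance of their start from that of CSLA03 in kb (horizontal axis); diamonds are the 3 members, dark points other genes with an adjusted p under 0.05 and light points the remaining genes. The points above 10 are AT1G23915, AT1G25025 and AT1G25112, which had 0 counts in WT, so their fitted values depend on the prior count and are no measure of size.

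Elsewhere the members were spread over the genome. Chromosomes 1 to 5 held 19, 9, 10, 10 and 13 of them (31.1, 14.8, 16.4, 16.4 and 21.3%), against 26.3, 15.1, 19.7, 15.3 and 23.6% of genes with a WT mean of at least 2 CPM. The member nearest HY5 on chromosome 5 was NAS1, 2.14 Mb away. Members within 5 genes of another member were AT1G47395 with AT1G47400, FRO4 with FRO5, AT3G09160 with AT3G09162, and UMAMIT35 with AT1G60095, 8 genes in all. Of 116 flanking genes that are no members, 85 were tested: 24 fell in hy5 (28.2%, against 19.8% of all genes), 12 rose (14.1%, against 19.6%), and their median log2 fold change was -0.08. The flanking genes that fell include IRT2 beside IRT1, AT3G22235 beside AT3G22240, and AT5G04960 beside NAS1, which fell by 1.90 ± 0.11 (edgeR adjusted p = 5.8e-09). Annotated genes overlap 14 members, and without a stated strand such reads cannot be assigned.

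Other pathways were looked for in the set by lists. Those of methionine chain elongation, aliphatic and indole glucosinolates, sulfate, nitrate, root hair and flavonol genes hold 0 members each. Only 61 of 18149 nuclear genes with a WT mean of at least 2 CPM are members. Lists of 7 to 17 genes would mostly hold 0 at that share, so the 0 is not read as a result about these pathways. In the root hair and methionine chain elongation lists, 15 of 17 and 9 of 10 genes fell in hy5, and 14 and 6 of them fell in bbx202122 too, where 19.8% and 8.27% of all genes fell. The root hair factor gene RSL2 came close to the rule: it was at 4.34, 4.37 and 1.84 CPM in WT, bbx202122 and hy5 on average, with -1.19 ± 0.21 in hy5 (edgeR adjusted p = 0.00037) and -0.01 in bbx202122 (adjusted p = 0.99).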

How the data were processed

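Per the submitters' processing notes, the authors used HISAT (no version given), Bowtie2 2.2.5, RSEM 1.2.12 and the build TAIR10. The deposited files hold expected counts (RSEM estimates, unscaled) and FPKM, which the authors normalised to transcript length and library size; genes under 0.01 FPKM are not listed. Here CPM is the expected count over the library's sum times 1e6. For tests, expected counts were rounded and fitted with edgeR 4.0.16 (R 4.3.3), with TMM scaling, filterByExpr (20751 genes) and 1 mean per genotype over 9 libraries (6 residual degrees of freedom). The quasi-likelihood test was two-sided, with Benjamini-Hochberg adjustment over all tested genes and calls at an adjusted p under 0.05. The SE of a log2 fold change was worked back from this test, as its absolute value over the square root of the F statistic. The pipeline was checked on simulated counts. DESeq2 1.42.0, other scalings, filters and left-out libraries were alternatives.

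Members and the 18 lists (172 genes) were chosen with earlier results of these data known. Named genes are members on a list, with a low hy5 share, a high level, a value near the limit or a neighbouring member, and, per list, up to 4 called non-members with the smallest adjusted p; other genes, families and the chromosome 1 stretch were picked after their values were seen. Replicate numbers were not used to pair samples in the main fit. Deviations from the genotype mean correlated at -0.079 to 0.139 between libraries of the same number. Libraries of different numbers were not compared, so these values cannot exclude pairing. Coordinates and sequences are RefSeq TAIR10.1, where all 12450 genes with 1 transcript had the deposited length. Bounds from 3 counts cover counting error only.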

Additional observations from a re-analysis of the deposited data

How the results depend on the processing

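The number of members depends on the limits: 24 genes met the rule with a hy5 mean of at most 0.3 of WT, 162 with at most 0.5, and 139 with bbx202122 at 0.67 to 1.5 of WT, against 61. With TMM-scaled levels 47 were taken and with FPKM 58, with minimum WT levels of 1 and 5 CPM 79 and 41, and without single libraries 55 to 69. These sets do not hold the same genes. Of the 61 members, 51 were among the 58 taken with FPKM. Without single libraries 47 (without WT replicate 2 or WT replicate 3) to 56 (without hy5 replicate 2) of the 61 were kept, and other genes came in. The members' median hy5 level was 34.4% of WT with TMM scaling and 32.3 to 34.1% without single libraries, against 33.1%. With library size as the only scaling 1427 genes were higher in hy5 than in bbx202122, against 2263, and higher calls made up 27.5% of calls in place of 47.4% (38.2% in place of 49.7% for hy5 against WT). Leaving out single libraries gave 1084 to 1729 genes higher in bbx202122 than in WT (1084 without WT replicate 2, against 1788). A fit with the replicate block called 3980 genes lower and 3904 higher in hy5 than in WT, against 4117 and 4070. The 10 iron list genes that fell in hy5 were 9 to 10 without single libraries. For 104 listed or named genes that are no members, 1093 of 1144 alternative values of the change in hy5 kept direction and call, 34 lost the call, 7 gained it and 10 reversed. All reversals were in uncalled genes: with library size as the only scaling BBX22 was at -0.01 and CURT1C at -0.05, and CURT1C was at 0 with the replicate block or with WT and hy5 alone, and -0.02 to 0.03 without single libraries, CURT1B at -0.13 to 0.01 and ALMT9 at -0.08 to 0.06 without single libraries. The causes were not tested. The low depth of members at 2 to 5 CPM in WT limits the precision of their hy5 levels.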
